A study of Homo sapiens with 17 samples.

Results

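POLIIS2P is the name given to an antibody target in 3 of the 17 CUT&Tag libraries of this study of human pluripotent stem cells, and these 3 libraries are described here. They compare H1 cells carrying an shRNA against HNRNPU (shHNRNPU#1, 1 library) with H1 cells carrying an shRNA against luciferase (shLUC, 2 libraries). The members were taken by antibody and shRNA from the sample titles. H1 is an established human embryonic stem cell line, and luciferase is an insect enzyme with no counterpart in human cells. Cells of both groups received the shRNA in a virus packaged in 293T cells and were selected with puromycin, so viral transduction and selection were shared by all 3 libraries. In CUT&Tag an antibody bound to chromatin brings the transposase Tn5 to its target, and Tn5 inserts sequencing adapters into the DNA nearby.

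RNA polymerase II transcribes protein-coding genes. Phosphorylation of serine 2 in the repeats of its C-terminal tail, placed mainly by the kinases CDK9, CDK12 and CDK13, accompanies productive elongation and usually builds up along gene bodies and past the polyadenylation site. HNRNPU, also called SAF-A, is an abundant nuclear protein that binds RNA and chromatin-associated transcripts, and has been tied to pre-mRNA splicing and to the organization of chromosomes in the interphase nucleus. No antibody against RNA polymerase II is among the primary antibodies that the protocol lists, so the target rests on the sample titles.

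Each library was deposited as a list of peak summits, each summit being the base of highest signal in a called peak, with a score taken to be the −log10 q-value of the peak. The shHNRNPU#1 list held 79949 summits, and the shLUC lists held 87456 and 85517. Median scores were 4.80 in shHNRNPU#1 and 5.06 and 5.10 in shLUC. Read depth is unknown. A score was therefore converted to its percentile within its own list, and numbers of summits were compared after keeping the 79949 highest-scoring summits of each list, which took the lowest score retained to 2.26 and 2.23 in the shLUC lists against 1.3 in shHNRNPU#1. Summits up to 1000 bp from the start or the far end of a protein-coding gene were assigned to a gene end, and those deeper inside a gene to its body. Because shHNRNPU#1 has 1 library, no test was possible. A gene was called raised or lowered when shHNRNPU#1 differed from the mean of the shLUC lists by more than those lists differed from each other and by at least 10 percentile points, 3 body summits or 2 end summits. These calls compare libraries, and no source states that the shLUC libraries came from separate cultures.

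The label was checked against cell markers and against position in genes. All 11 markers of pluripotent stem cells had a summit within 5000 bp of the gene in all 3 lists, with median percentiles of 97.7 in shHNRNPU#1 and 99.1 and 98.9 in shLUC. All 5 mesendoderm markers had a summit in every list too, with median percentiles of 77.6 against 69.8 and 69.9, and 4, 4 and 5 of 5 neural markers had one, with medians of 71.3 against 64.3 and 58.5. Of 5 fibroblast markers 1 had a summit in each list, and of 4 trophoblast markers 2 had a summit in shLUC replicate 1 alone. In lists of equal length, 62.9% of summits in shHNRNPU#1 (95% Wilson interval 62.6% to 63.2%, counting error only) and 63.4% and 63.7% in shLUC were in gene bodies. Gene ends held 19.6% against 18.8% and 19.0%. When each of the 8941 genes of at least 20 kb with a known strand was divided into 10 equal parts, the last part held the most summits, with 14.0% in shHNRNPU#1 and 13.4% and 13.9% in shLUC. The share in the last part therefore differed by less than the spread of the controls. In 3 of the 10 parts the spread was exceeded, by differences of at most 0.11 percentage points. Summits were nevertheless densest just upstream of gene starts in all 3 lists, which is not the place where serine 2 phosphorylation is usually strongest.

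The clearest difference between the conditions was the place of summits at gene starts. Among 15842 genes with a known strand, 4275 summits of shHNRNPU#1 lay within 200 bp upstream of a start, against 3572 and 3656 in shLUC. A summit near the starts of more than 1 gene was counted once for each. This was 18.3% above the shLUC mean, while the shLUC lists differed by 2.32% of their mean. On the downstream side the order was opposite, with 1752 summits in the first 200 bp against 2027 and 1905, a change of −10.9% with a shLUC difference of 6.21%. From 200 to 1000 bp downstream shHNRNPU#1 again had more summits, at 2326 against 2126 and 2201, or 7.51% more. With all deposited summits that figure was 1.37%, with a shLUC difference of 1.09%. Summits of shHNRNPU#1 thus gathered more tightly at the promoter itself. The sharpest excess stood 50 to 100 bp before the start, where 1 bin of 50 bp held 1352 summits in shHNRNPU#1 and 1024 and 1037 in shLUC.

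**Figure D1:**
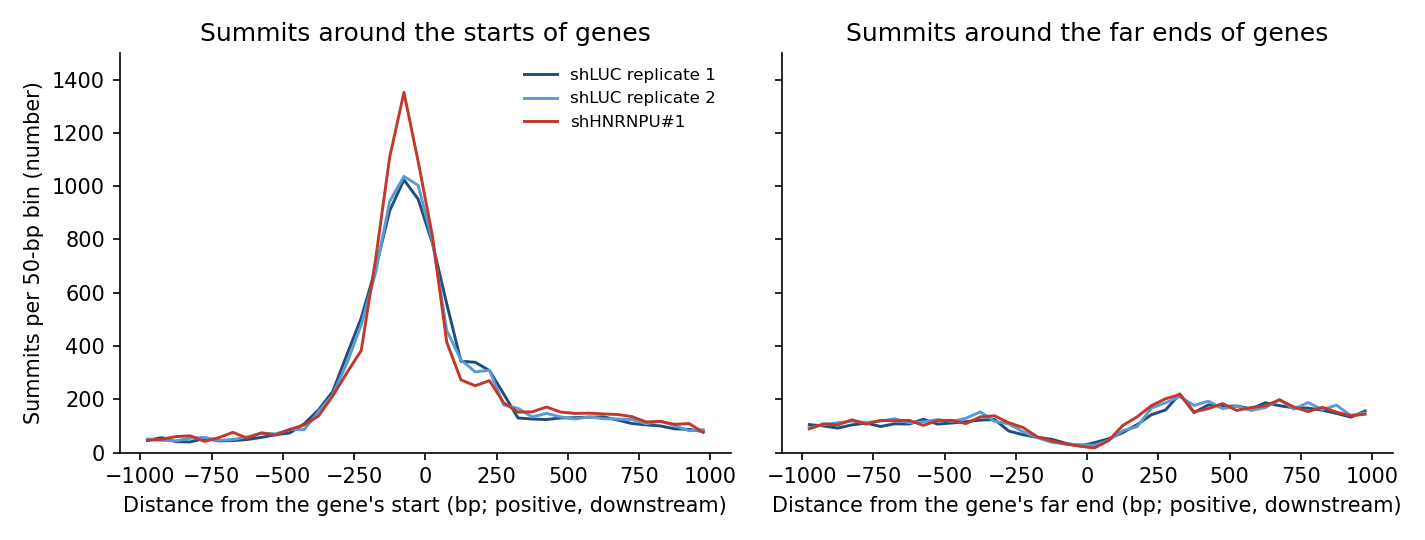
Number of POLIIS2P summits in bins of 50 bp within 1000 bp of the starts (left) and far ends (right) of 15842 genes, 1 line per library, in lists of equal length. Just upstream of the start the shHNRNPU#1 line reaches 1352 summits and stands above both shLUC lines, which reach 1024 and 1037, whereas bins around the far ends hold far fewer summits, such as 158 against 175 and 174 in the bin centred 525 bp past the end.

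The excess was larger in the strongest peaks. Among the 20000 highest-scoring summits of each list, 2920 lay within 200 bp upstream of a start in shHNRNPU#1 against 2310 and 2358 in shLUC, which was 25.1% more. It was present at genes of every length class, at 17.9% for genes under 30 kb, 17.5% for genes of 30 to 100 kb and 21.4% for genes of 100 kb or more. At 7822 genes with a start summit in all 3 lists, the strongest one fell within 200 bp upstream at 47.4% of genes in shHNRNPU#1 and at 39.9% and 41.8% in shLUC. Its median absolute distance from the start was 132 bp against 148 and 145 bp. Far ends differed in fewer intervals. The first 200 bp past the far end held 298 summits in shHNRNPU#1 against 269 and 252, or 14.4% more with a shLUC difference of 6.53%. With all deposited summits this was 8.56% more with a shLUC difference of 9.11%, so within that of the controls. From 200 to 1000 bp past the far end there were 2728 summits in shHNRNPU#1 and 2656 and 2777 in shLUC, a difference within that of the controls. Among the 20000 highest-scoring summits the changes were 11.7% in the first 200 bp, −5.3% from 200 to 1000 bp and −2.27% from 1000 to 3000 bp past the far end, each beyond the shLUC difference.

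The H3K27ac libraries, a histone mark of active promoters and enhancers, offer the same interval in the same knockdown. Within 200 bp upstream of starts they held 1408 and 1340 summits in shHNRNPU#1, counted in lists cut to 40487 summits. The shLUC libraries titled H3K27ac held 963 and 883, and those titled H3K4me1 held 1383 and 1601. Within 200 bp downstream of starts shHNRNPU#1 held 1401 and 1370. There the shLUC libraries titled H3K27ac held 279 and 270, and those titled H3K4me1 held 1584 and 1784. Which label is right was not tested. The peak names inside the shLUC files give these antibodies the other way round. Upstream of starts, shHNRNPU#1 was above both shLUC libraries as titled and overlapped them with the names exchanged. Downstream, shHNRNPU#1 was above both as titled and below both with the names exchanged, so the direction there depends on the label.

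Promoters of HNRNPU, SRSF3, NANOG, DUSP1 and SMC3 show where such summits fell. They were chosen after their values were seen, from genes of the lists described below. The sequences are the 250 bases before the start in RefSeq (GRCh38.p14), written 5′ to 3′ on the coding strand, and the capitals mark a summit and 10 bases to either side of it. Summits 54 bp before the start of HNRNPU (chr1:244864544-244864793, minus strand), 92 bp before SRSF3 (chr6:36594112-36594361, plus strand), 52 bp before NANOG (chr12:7789152-7789401, plus strand) and 56 bp before DUSP1 (chr5:172771196-172771445, minus strand) come from the shHNRNPU#1 list. The one 71 bp before SMC3 (chr10:110567445-110567694, plus strand) comes from shLUC replicate 1.
HNRNPU: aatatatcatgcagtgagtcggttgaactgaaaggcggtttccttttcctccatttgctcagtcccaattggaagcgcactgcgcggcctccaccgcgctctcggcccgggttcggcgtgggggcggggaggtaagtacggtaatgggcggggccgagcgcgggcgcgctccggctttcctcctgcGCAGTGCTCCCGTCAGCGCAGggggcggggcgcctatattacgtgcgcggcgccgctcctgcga
SRSF3: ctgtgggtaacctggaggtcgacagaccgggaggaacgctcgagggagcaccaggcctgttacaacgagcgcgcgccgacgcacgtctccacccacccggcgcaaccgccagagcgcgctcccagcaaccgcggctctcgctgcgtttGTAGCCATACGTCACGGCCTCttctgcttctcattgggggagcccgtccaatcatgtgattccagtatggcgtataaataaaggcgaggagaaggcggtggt
NANOG: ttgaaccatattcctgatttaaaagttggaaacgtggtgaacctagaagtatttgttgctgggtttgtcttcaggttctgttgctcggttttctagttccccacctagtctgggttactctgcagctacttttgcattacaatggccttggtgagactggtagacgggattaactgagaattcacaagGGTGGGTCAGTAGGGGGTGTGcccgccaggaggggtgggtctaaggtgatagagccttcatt
DUSP1: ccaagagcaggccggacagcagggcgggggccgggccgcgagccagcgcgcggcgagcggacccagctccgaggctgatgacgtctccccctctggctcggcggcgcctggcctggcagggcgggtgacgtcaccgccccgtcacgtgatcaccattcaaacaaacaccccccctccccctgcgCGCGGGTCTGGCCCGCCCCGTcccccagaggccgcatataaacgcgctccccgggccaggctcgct
SMC3: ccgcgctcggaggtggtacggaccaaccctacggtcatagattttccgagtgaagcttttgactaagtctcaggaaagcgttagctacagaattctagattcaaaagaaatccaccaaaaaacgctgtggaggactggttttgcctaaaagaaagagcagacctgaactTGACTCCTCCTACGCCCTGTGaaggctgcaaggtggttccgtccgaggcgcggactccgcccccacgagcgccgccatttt
A TATAAA sequence was found in the SRSF3 and DUSP1 windows, CCAAT in those of HNRNPU and SRSF3, and GGGCGG in those of HNRNPU, DUSP1 and SMC3, searching both strands. Of 22199 promoter windows of the same origin, 9.0% held TATAAA, 32.7% CCAAT and 53.7% GGGCGG.

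HNRNPU itself, the targeted gene (chr1:244850297-244864543), kept its strongest POLIIS2P summit. That summit stood at the 99.7th percentile 1453 bp inside the gene in shHNRNPU#1, and at the 99.5th percentile 1366 bp inside in both shLUC lists. The summit 54 bp upstream of the start, marked in the sequence above, was at percentile 94.2 in shHNRNPU#1, absent from shLUC replicate 1 and at 85.8 in shLUC replicate 2. Over both gene ends the highest percentile was 94.2 against 81.0 and 85.8, a raised call. The call was lost with a window of 2000 bp (0.19 points), with 500 bp, and without shLUC replicate 1 (8.42 points). An shRNA acts on the transcript, so these values do not measure the knockdown, and no RNA or protein level of HNRNPU was analysed here. Its paralog HNRNPUL1 had its start summit at 75.7 against 92.4 and 84.0, a lowered call at the start.

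SRSF3, a serine and arginine-rich splicing factor, moved in position as well as in rank. Its start summit was at percentile 95.6, 92 bp before the start, in shHNRNPU#1, and at 86.8 and 75.4, both 160 bp before the start, in shLUC. NANOG, a transcription factor of the pluripotency network, had a start summit at 75.9 in shHNRNPU#1 and none within 1000 bp of the start in either shLUC list. Its strongest summit in shLUC was in the gene body, at 81.9 in replicate 1 and 48.3 in replicate 2, so over the whole locus the lists overlapped. DUSP1, a phosphatase of MAP kinases, had its start summit at the same base in all 3 lists, and its percentile was 71.9 against 84.2 and 86.4. SMC3, a cohesin subunit, had its start summit 251 bp downstream at 83.0 in shHNRNPU#1, and 71 and 70 bp upstream at 94.2 and 91.9 in shLUC, the opposite movement to the general one.

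Gene by gene, the percentile of the strongest gene-end summit differed little more between conditions than between the controls. The mean absolute difference over 13946 genes was 13.4 points between the shLUC lists and 14.4 and 14.5 points between shHNRNPU#1 and each of them. By the call rule 1533 genes (11.0%) were raised and 1890 (13.6%) lowered, and the median difference was −0.16 points. Starts gave 1214 raised (11.7%) and 1311 lowered (12.7%) of 10361. Far ends gave 722 raised (12.8%) and 990 lowered (17.6%) of 5620, with a median difference of −2.77 points. Which direction held more genes depended on list length. With percentiles taken in lists of equal length, 1813 genes were raised and 1614 lowered at gene ends, 1448 and 1122 at starts and 804 and 861 at far ends, where the median was −1.35 points. The majority direction thus turned between the scalings at gene ends and at starts, while at far ends lowered genes outnumbered raised ones under both. In number of gene-end summits 139 of 13750 genes were raised (1.01%) and 50 lowered (0.364%). The most highly ranked ends were stable, since of 3995 genes with a mean percentile of 90 or more 0 were raised and 32 lowered. That class was formed from the same values, which limits how far they can differ.

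The 10 largest rises and 10 largest falls at gene ends were summits crossing the edge of the window. RPL3, a protein of the large ribosomal subunit, had its strongest summit at percentile 99.9 and 988 bp past the far end in shHNRNPU#1, while those of shLUC lay 1724 and 1664 bp past it, at percentiles 99.95 and 99.9. CCND1, which encodes cyclin D1, was at 94.96 against 0 and 0 by window. Over the gene and 5000 bp to either side (the locus percentile) the CCND1 values were 94.96 against 97.7 and 97.0. The other rises were at DCST2, SLC6A16, MIA, ATF5, SLC23A3, MDK, CBX6 and SFXN4, and the falls at ELL3 and SERF2, which share a summit, and at S100PBP, SPATA13, SLC25A41, TSEN34, EGFL7, UNC13A, COPS5 and TUBA1C. At all 20 the condition without a summit in the window had one between 1003 and 1837 bp from the gene's end. For 19 of the 20 the locus percentile differed from the shLUC mean by at most 5.92 points. EGFL7, a secreted angiogenic factor, was the exception at 75.9 against 93.4 and 92.3. Of all genes raised at their ends, 383 had no shLUC summit in the window, and 129 of these had one within 2000 bp in both shLUC lists. For the lowered genes the counts were 517 and 223.

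The locus percentile, added after the data were seen, places that edge farther out, and by it 1224 of 16325 genes were raised (7.5%) and 1767 lowered (10.8%), or 1495 and 1492 in lists of equal length. HHLA1 and OC90, neighbours on chromosome 8 that share a summit, had no summit in shHNRNPU#1 and percentiles of 89.2 and 88.6 in shLUC. ZNF780A, a zinc-finger gene, was at 0 against 87.2 and 88.3. STMN2, a neuronal microtubule regulator, was at 0 against 81.6 and 84.9, and H1-3, a linker histone, at 0 against 79.6 and 83.6. ADAMTS1, an extracellular protease, was at 4.76 against 83.1 and 80.9. In the other direction BEX2, on the X chromosome, was at 92.5 against 17.0 and 0, and KCNA1, a potassium channel, at 83.4 against 0 and 0. The largest rise, at LOC102724250, came from a summit at chr1:634029 that lies in nuclear copies of mitochondrial genes, where reads from mitochondrial DNA can map.

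In gene bodies the percentile of the strongest summit was raised at 1492 of 12569 genes (11.9%) and lowered at 2062 (16.4%), with a median difference of −0.91 points. In lists of equal length the counts were 1838 and 1708 and the median −0.02. The number of body summits moved most at long genes. Of 12348 genes with a body summit, 518 (4.2%) were raised and 563 (4.56%) lowered in number, against 308 and 881 when all deposited summits were counted. ADCY2, an adenylyl cyclase gene of 433944 bp, had 49 summits in shHNRNPU#1 and 80 and 81 in shLUC. SYT1, a calcium sensor of synaptic vesicles, had 13 against 42 and 33. TMEM132D had 19 against 40 and 36, and in its second part, beyond the middle of the gene, 1 against 8 and 7. CHST9, a sulfotransferase gene of 278828 bp, had 1 summit against 17 and 16. CDK14 had 5 against 28 and 16, and UTRN, the gene of the dystrophin relative utrophin, 18 against 37 and 32. The others among the 10 largest falls were B3GALT1 (36 against 53 and 58), MAGI2 (22 against 39 and 39), HS3ST5 (15 against 33 and 28) and SHISA9 (13 against 32 and 24).

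GSE1, a cofactor of chromatin-modifying complexes, had the largest rise, at 72 summits against 52 and 46. Its extra summits lay mostly before the middle of the gene, at 32 against 17 and 18. TMEM132B, a relative of TMEM132D on the same chromosome, moved the opposite way at 65 against 47 and 45. CDH4, the gene of R-cadherin, had 21 against 8 and 8, and NSD1, a histone H3 lysine 36 methyltransferase, 28 against 16 and 15. DENND1A had 46 against 32 and 32, DLGAP1 52 against 37 and 39, and PCCA 44 against 32 and 33. MSI2, an RNA-binding protein of stem cells, had 49 against 42 and 33. CTBP2, a transcriptional corepressor, had 59 against 46 and 51, and DIP2C 38 against 24 and 31. The shortest of these 20 genes was NSD1, at 168416 bp, in a ranking by number that favours long genes.

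**Figure D2:**
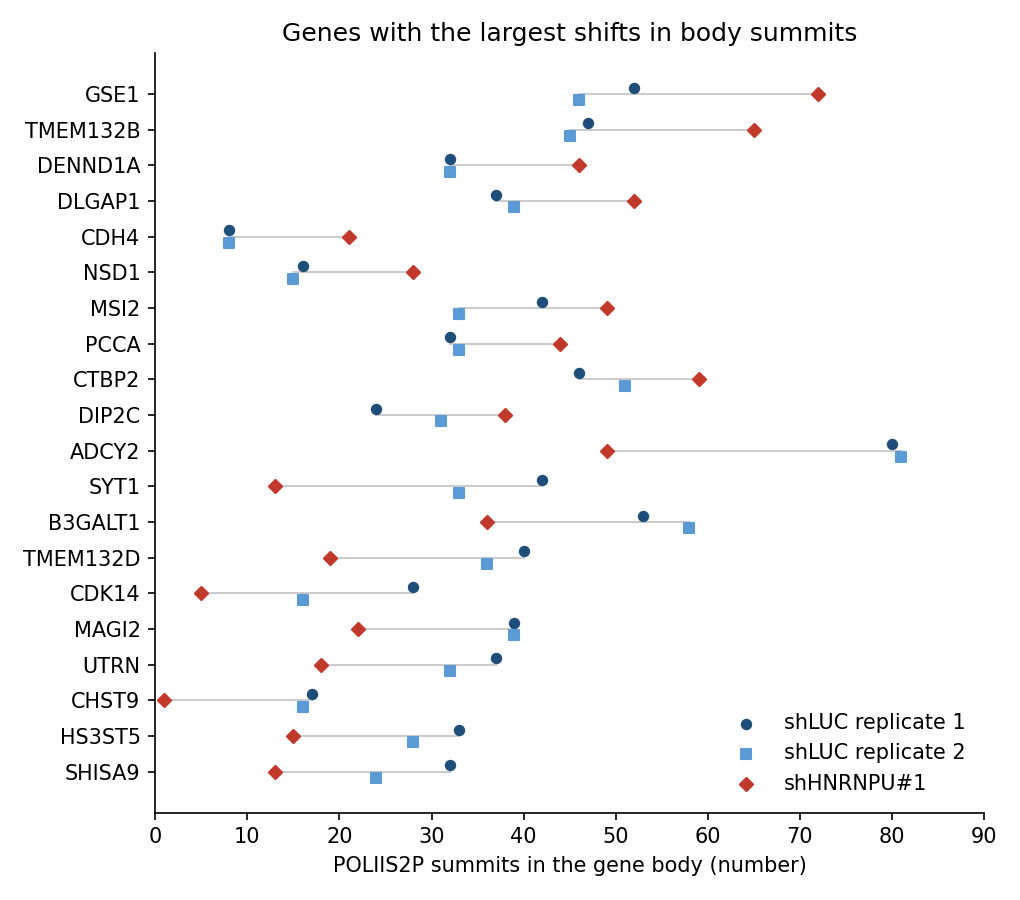
POLIIS2P summits in the gene body (number, horizontal axis) of the 20 genes with the largest shifts, 1 marker per library and gene, in lists of equal length. The shHNRNPU#1 marker lies outside the pair of shLUC markers at every gene, to the right for GSE1 (72) and to the left for ADCY2 (49).

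**Figure D3:**
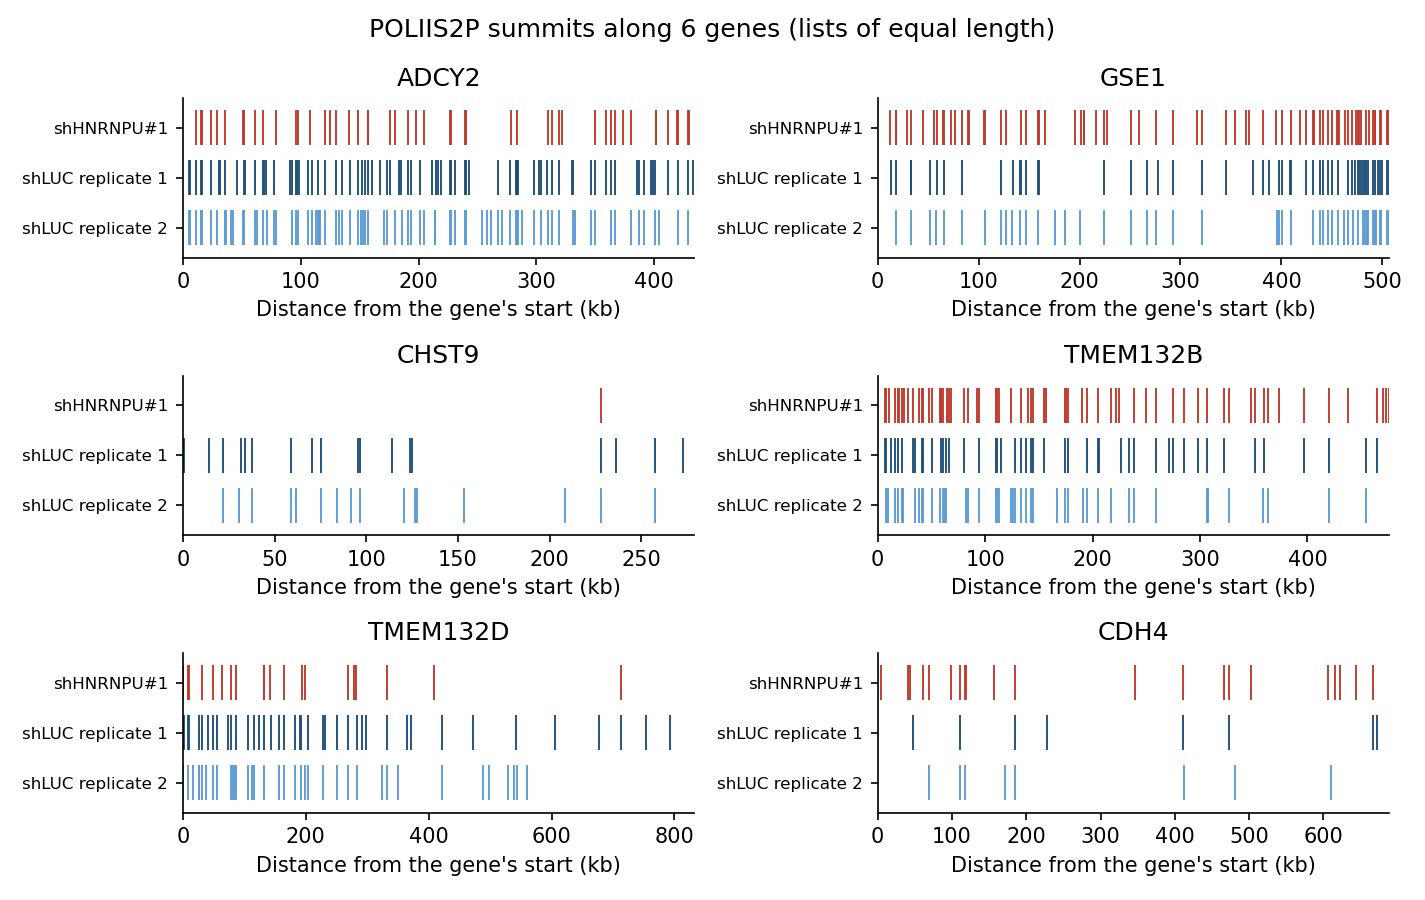
Positions of POLIIS2P summits along 6 genes, in kb from the gene's start, with 1 row of lines per library and each line standing for 1 summit. CHST9 keeps 1 body summit in shHNRNPU#1 against 17 and 16 in shLUC, and ADCY2 has fewer summits before its middle (26 against 45 and 48) and beyond it (23 against 35 and 33).

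The H3K27ac lists give a further view of some of these genes, again with the names of the shLUC files in doubt. CHST9 had 2 and 0 body summits of H3K27ac in shHNRNPU#1. In shLUC it had 4 and 5 as titled and 2 and 2 with the names exchanged. CDK14 had 7 and 8, against 17 and 19 as titled and 9 and 13 exchanged. For CDK14 the shHNRNPU#1 values were below shLUC under both readings. For CHST9 the libraries overlapped with the names exchanged. ADCY2, with the largest POLIIS2P fall, had 13 and 16, against 18 and 20 as titled and 13 and 14 exchanged, where the libraries overlapped too. GSE1, with the largest POLIIS2P rise, had 33 and 27, against 39 and 40 as titled and 19 and 24 exchanged. Its order thus turned with the labels. These genes are examples, and the 20 were not compared as a set.

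Gene length separated the directions. Body summits were added over genes, so a summit inside more than 1 gene was counted once for each. In genes of 10 to 30 kb the lists held 7727 body summits in shHNRNPU#1 and 7037 and 7166 in shLUC, 8.81% more than the shLUC mean with a control difference of 1.82%. Genes under 10 kb had 1437 against 1291 and 1369, or 8.05% more. In genes of 30 to 100 kb the difference was 0.83%, within that of the controls. Genes of 100 to 300 kb had 18458 against 19265 and 19147, or −3.89%. Genes of 300 kb or more had 6232 against 7059 and 6755, or −9.77%, with a control difference of 4.40%. Shorter genes thus had more and longer genes fewer summits in lists of equal length. By gene, 56 were raised (1.48%) and 8 lowered (0.21%) at 10 to 30 kb. At 300 kb or more 42 were raised (7.09%) and 113 lowered (19.1%), beside 4.2% and 4.56% of all genes. Of 227 genes of at least 500 kb with a body summit, 13 were raised (5.73%) and 47 lowered (20.7%). The fixed size of 3 summits is harder to reach in short genes, and 0 genes under 10 kb were called in either direction. With all deposited summits the changes were 1.60% at 10 to 30 kb and −19.2% at 300 kb or more, and with the 20000 highest-scoring summits 4.10% and −6.23%. The lists of equal length end at different scores, and the part of that in this gradient was not tested.

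**Figure D4:**
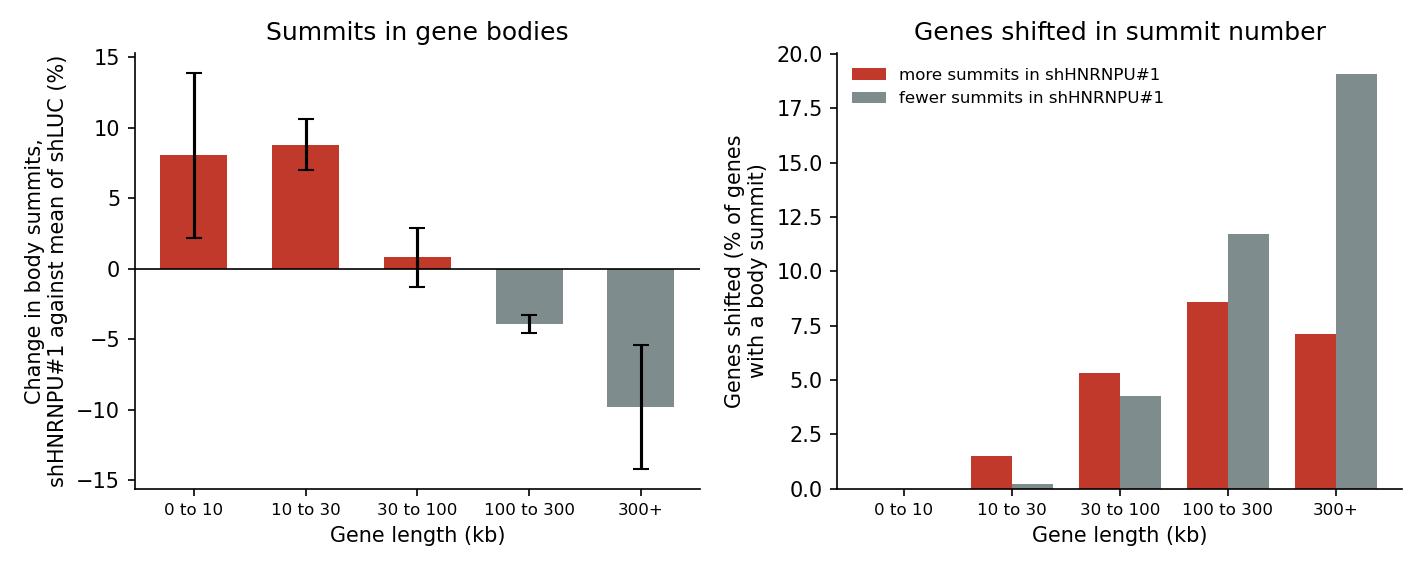
Left, change in the number of body summits in shHNRNPU#1 relative to the mean of the shLUC lists (%), by gene length in kb, with error bars of plus and minus the difference between the shLUC lists. Right, share of genes with a body summit that had more (red) or fewer (grey) summits in shHNRNPU#1 by the call rule. The change passes from 8.81% at 10 to 30 kb to −9.77% at 300 kb or more.

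Chromosomes differed slightly in their share of the summits. Chromosome 19 held 6.55% of summits in shHNRNPU#1 and 6.06% and 6.33% in shLUC, and chromosome 17 held 5.58% against 5.37% and 5.35%. Chromosome 4 held 3.97% against 4.24% and 4.13%, and chromosome 6 4.94% against 5.17% and 5.12%. Of 24 chromosomes 6 were higher and 10 lower by more than the difference between the shLUC lists. Chromosome X, at 2.03% against 2.27% and 2.11%, was among the lower and chromosome 15, at 3.36% against 3.26% and 3.23%, among the higher. A relation of these shares to gene length was not tested.

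Among the 16 gene lists compared, immediate early and MYC genes, which respond to growth and stress signals within minutes, gave calls in both directions. Of 20 with a gene-end summit, 2 were raised (10.0%) and 6 lowered (30.0%), beside 11.0% and 13.6% of all genes, and the median difference was −4.91 points against −0.16 over all genes. In lists of equal length the counts were again 2 and 6, with a median of −4.01 points against 0.24 over all genes. At their starts the order was opposite, with 3 raised and 1 lowered of 14 and a median of 1.3 points, and in the gene-body percentile 3 were raised and 3 lowered of 19. EGR1, a zinc-finger transcription factor, had a far-end summit at percentile 86.9 in shHNRNPU#1 and 99.5 and 99.3 in shLUC. Its position differed too, at 981 bp past the far end in shHNRNPU#1 and 445 and 479 bp in shLUC. IER2 was at 85.8 against 96.6 and 96.7, in each list about the same distance past the far end. DUSP2 was at 62.3 against 92.3 and 92.1, IER3 at 65.4 against 94.4 and 85.04, and MYCN at 64.4 against 73.9 and 85.3. IER5 was raised, at 76.8 against 64.6 and 47.5, as was the nuclear receptor gene NR4A1 at 53.7 against 33.5 and 0. FOS was at 87.1 against 96.8 and 96.6 over its ends, which missed the size of the call, and its start carried a summit at 78.0 in shHNRNPU#1 and in neither shLUC list. MYC itself was at 86.8 against 88.9 and 93.3. By the locus percentile, 2 of the 24 genes were raised and 4 lowered, with a median of −1.43 against −0.21 over all genes, and EGR1, IER2, IER3 and DUSP2 were those lowered. The window mattered here, since within 500 bp of the ends IER2 was higher in shHNRNPU#1 by 57.7 points and DUSP2 by 16.2 points. The calls of MYCN and NR4A1 were lost with windows of 500 bp and of 2000 bp, where the differences at 2000 bp were −5.78 and 7.72 points.

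**Figure D5:**
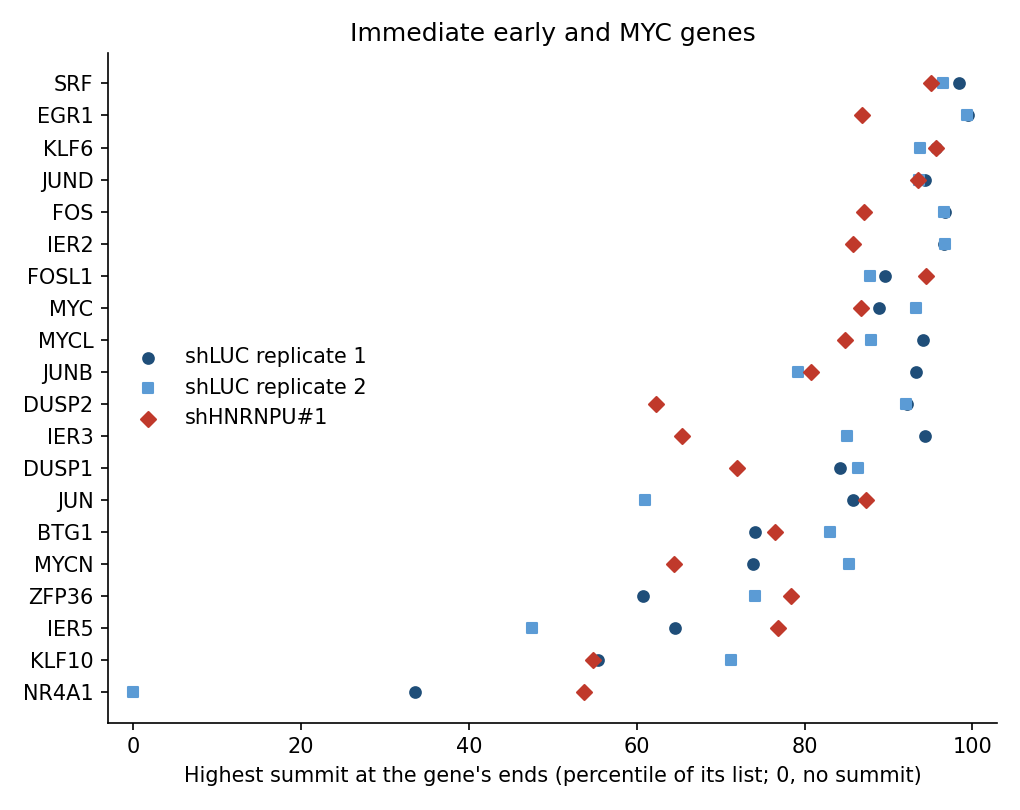
Percentile of the strongest summit at the ends of 20 immediate early and MYC genes (0, no summit), 1 marker per library. The shHNRNPU#1 marker of EGR1 stands at 86.9, left of both shLUC markers at 99.5 and 99.3, and those of DUSP2, IER3, IER2 and DUSP1 lie left of both shLUC markers too.

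Genes of the unfolded protein and integrated stress responses gave 2 raised (11.8%) and 4 lowered (23.5%) of 17, beside 11.0% and 13.6% of all genes, with a median of −1.55 points. ATF4, the transcription factor of the integrated stress response, was at 81.1 against 94.7 and 91.3, and PPP1R15A, which encodes a regulatory subunit of the eIF2 alpha phosphatase, at 82.4 against 95.4 and 91.7. Within 500 bp of the ends both ATF4 and PPP1R15A were higher in shHNRNPU#1, by 33.7 and 32.4 points. CHAC1 and HSPH1 were lowered as well, and TRIB3 and SESN2 raised. Of 24 p53 targets with a gene-end summit, 3 were raised (12.5%) and 2 lowered (8.33%), which is near the 11.0% and 13.6% of all genes.

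Of 24 pluripotency genes with a gene-end summit, 3 were raised (12.5%) and 1 lowered (4.17%), beside 11.0% and 13.6% of all genes, with a median of −0.22 points. The raised ones were NANOG (75.9 against 14.4 and 45.4), SFRP2, a secreted WNT modulator (95.8 against 19.1 and 46.6), and PODXL, a sialomucin of the cell surface (44.1 against 0 and 0). TRIM71 was lowered at 0 against 81.7 and 48.1. With a window of 2000 bp PODXL and TRIM71 differed by −2.99 and 0.19 points, and the calls of SFRP2 (4.17 points) and NANOG (10.83 points) were lost as well. By the locus percentile 1 of 29 was raised and 0 lowered, and POU5F1, which had no summit at its ends, was at 99.6 against 99.4 and 99.4. PRDM14, a repressor of differentiation genes, had 2 body summits against 6 and 5, and FGF2 had 11 against 14 and 15. Naive pluripotency genes gave 1 raised and 1 lowered of 11.

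Mesendoderm genes gave 1 raised (CXCR4, 66.5 against 17.0 and 2.47) and 3 lowered of 13, beside 11.0% and 13.6% of all genes. Their median difference was 5.25 points. In lists of equal length 3 were raised and 3 lowered, with a median of 5.51 points. Among the lowered were the endoderm factor GATA6 at 8.66 against 58.2 and 73.5 and the NODAL inhibitor LEFTY1 at 29.3 against 64.9 and 67.9. By the locus percentile 5 of 18 mesendoderm genes were lowered (27.8%) and 1 raised (5.56%), beside 10.8% and 7.5% of all genes. Their median was −9.12 points against −0.21 over all genes. In lists of equal length 5 were lowered and 3 raised at the locus, with a median of −7.43 points against 0.05 over all genes. Neural genes gave 3 raised (20.0%) and 4 lowered (26.7%) of 15, both above the shares of all genes, with a median of −8.25 points. In lists of equal length the neural counts were 3 raised and 2 lowered, with a median of −3.76 points. TUBB3, a neuronal tubulin, was at 55.4 against 90.4 and 90.1, a call that was lost with a window of 500 bp, where the difference was 0. The gene of N-cadherin, CDH2, had 1 body summit against 5 and 5. Trophoblast and amnion genes gave 2 raised and 1 lowered of 8, and of 5 fibroblast genes with a gene-end summit 0 were called.

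The transcription machinery gave calls in both directions. Of 40 genes of polymerase II elongation control, 4 were raised (10.0%) and 6 lowered (15.0%), which is near the 11.0% and 13.6% of all genes, with a median of 1.49 points. CDK9, the kinase of the elongation factor P-TEFb, was at 74.8 against 86.8 and 88.4 (higher by 40.0 points with a window of 500 bp), and CDK7, a kinase of the initiation factor TFIIH, at 56.0 against 74.9 and 86.1. MNAT1, of the same kinase complex, was at 62.9 against 85.3 and 80.1 at its ends. CCNH, the gene of its cyclin H, was lower in a different measure, with 6 body summits against 10 and 10. SUPT5H and SUPT4H1, the subunits of the pausing and elongation factor DSIF, were both raised by this measure. SUPT5H was at 80.9 against 61.2 and 58.8, and SUPT4H1 at 83.2 against 54.3 and 6.21. With a window of 2000 bp the call of SUPT4H1 was lost, while that of SUPT5H was kept. SETD2, the methyltransferase that travels with elongating polymerase, had 10 body summits against 7 and 6. Of 11 polymerase II subunits 0 were raised and 1 lowered, POLR2B, which encodes the second-largest subunit, at 0 against 58.1 and 63.8. This call depended on the window edge, since shHNRNPU#1 had a POLR2B summit at percentile 69.6 just outside it, at −1261 bp from the start, and by the locus percentile 0 of 12 subunit genes were called. Cleavage, polyadenylation and termination factors gave 2 raised and 2 lowered of 26, and XRN2, the exonuclease of torpedo termination, had 7 body summits against 11 and 10.

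The genes of hnRNP and splicing factors had median gene-end percentiles of 95.7 against 95.1 and 95.1, which leaves little room for a rise of the size required. Of 60, SRSF3 was raised and HNRNPL (81.4 against 94.6 and 91.3), HNRNPLL (78.8 against 86.6 and 92.5) and EFTUD2, a U5 snRNP GTPase (73.0 against 84.3 and 88.2), were lowered at their ends, or 1.67% and 5.0% beside 11.0% and 13.6% of all genes. By the locus percentile 1 was raised and 0 lowered. Genes of the nuclear matrix and of chromosome architecture gave 3 raised and 3 lowered of 36. The condensin genes split, with NCAPD2 at 92.5 against 63.2 and 8.12, NCAPG2 at 97.3 against 83.1 and 89.0, and NCAPH at 79.0 against 96.7 and 92.7. SAFB, the gene of scaffold attachment factor B, had 9 body summits against 5 and 5, and MATR3, the gene of matrin 3, 20 against 17 and 16. Cytosolic ribosomal protein genes gave 10 raised (13.2%) and 5 lowered (6.58%) of 76 at their ends, beside 11.0% and 13.6% of all genes. At their starts 12 of 57 were raised (21.1%) and 2 lowered (3.51%), beside 11.7% and 12.7% of all genes, with a median of 4.23 points against 0.02 over all genes, and by the locus percentile 1 was raised and 1 lowered of 79.

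Pooling the summits of all 3 lists within 250 bp of the next gave 143759 sites, of which 38454 were in all 3 lists. A further 13343 were in both shLUC lists and not in shHNRNPU#1, and 22698 were in shHNRNPU#1 alone. Sites in shLUC replicate 1 alone numbered 26640 and in replicate 2 alone 24057. These counts use all deposited summits and were not adjusted for list length, and the shHNRNPU#1 list is the shortest. Sites that separated the conditions were weaker than those in all 3 lists. The median percentile of the strongest summit was 80.9 in all 3 lists, 53.1 in both shLUC lists only and 27.5 in shHNRNPU#1 alone. Of the 13343 absent from shHNRNPU#1, 8099 had no shHNRNPU#1 summit within 2000 bp. Of those, 888 reached the 75th percentile and 33 the 90th. Of the 22698 in shHNRNPU#1 alone, 10634 had no shLUC summit within 2000 bp. Of those, 269 reached the 75th percentile and 22 the 90th. The strongest sites of either kind, at RPL3, SLC6A16, TOMM40, MSH4 and GET4, were displacements of 275 to 736 bp between conditions. The site at chr1:634029 was the exception, with the nearest shLUC summit 136423 bp away.

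The HNRNPU libraries of untransfected H1 cells gave 17226 sites found in both, and 8231 genes had one at an end. Among genes with a mean gene-end percentile of 75 to 90, 278 of 2302 with an HNRNPU site at an end were lowered (12.1%) and 209 of 967 without one (21.6%). Raised genes were 7.95% and 6.62%. In the other classes of mean percentile the lowered shares with and without a site were 10.1% and 8.42% below 25, 26.9% and 30.2% from 25 to 50, 21.4% and 29.0% from 50 to 75, and 0.68% and 1.28% at 90 or more, so the order was opposite in the lowest class. The excess of summits within 200 bp upstream of starts was 16.9% at the 6637 genes with an HNRNPU site within 1000 bp of the start, at 3076 against 2594 and 2668. It was 21.97% at the 9205 genes without one, at 1199 against 978 and 988. In genes of 100 kb or more, the change in body summits was −4.51% with an HNRNPU site in the body and −7.30% without. The displacement at starts and the lower numbers in long genes were therefore present at genes with and without a detected HNRNPU site, and the difference between these groups of genes was not tested.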

How the data were processed

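Sample titles gave the groups and replicate numbers. The authors deposited 1 summit list per library, and the deposited score of a summit was taken to be a −log10 q-value. Per the labels the reads were processed with cutadapt, Bowtie2, SAMtools, MACS2 and deepTools on hg38, and versions and settings are not given in the sources used here. The paper listed for the series covers other experiments and gave no method. The score depends on depth, which is unknown, so it was used only as a rank within its list. Genes were the 20037 protein-coding genes of the RefSeq table for GRCh38.p14, of which 15842 had a strand from the promoter table. Percentiles used all summits and numbers the 79949 highest-scoring ones. Numbers around starts and far ends and body numbers by gene length were added over genes, so a shared summit counted once per gene. Genes named are the 10 largest shifts per direction, at the 75th percentile or above for gene ends, the 5 strongest sites per direction, and members of 16 lists. Loci, length classes, chromosomes and distances to starts were added after the data were seen, as was the choice among list members. The members and lists were chosen with earlier results of these data known. The call rule was run on simulated lists with large planted changes and far closer agreement between lists than here. That run cannot show how the rule behaves at the spread of these data. Alternatives covered list length, window, call size and each shLUC library. Analyses used Python 3 with numpy, pandas and scipy. H3K27ac and HNRNPU lists were used only beside these results, and the H3K4me1 and shHNRNPU#2 lists of knockdown cells were not used here.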

Additional observations from a re-analysis of the deposited data

How the results depend on the processing

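No paired analysis was possible because the groups share only replicate number 1. Read depth is unknown and 1 shHNRNPU#1 library gives no estimate of its own spread, so a shift beyond the shLUC difference may still lie within the spread of shHNRNPU#1 libraries. The numbers of genes raised and lowered depended on the size required and on list length, and fewer genes pass a larger size by construction. With double the size they were 954 and 1231 for the gene-end percentile, 935 and 1284 for the gene-body percentile, 59 and 124 for body number and 1 and 0 for end number. The gene-end split of raised against lowered genes turned from 1533 against 1890 to 1813 against 1614 in lists of equal length. With the 20000 highest-scoring summits the counts were 1795 and 1220, 1187 and 1053, 44 and 48 and 42 and 13 in the same order. With all deposited summits the body numbers gave 308 and 881, so the lean towards fewer summits was stronger, and when a 1.5-fold change was also required 327 and 373. Genes with a summit in all 3 lists gave 869 raised and 1373 lowered at gene ends, and 832 raised and 1612 lowered in gene bodies. End numbers were 51 and 15 with a window of 500 bp and 337 and 133 with 2000 bp.

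The gene-body share of shHNRNPU#1 minus that of shLUC was −1.3 percentage points with all summits, −1.01 with the 20000 highest-scoring and −0.82 with a window of 2000 bp, and the gene-end share differed by 1.41, 1.69 and 0.90. Sites absent from shHNRNPU#1 numbered 2561 and sites in shHNRNPU#1 alone 4325 with the 20000 highest-scoring summits, and the latter 34682 when summits were joined at 100 bp. The changes in body summits were 1.6% at 10 to 30 kb and −19.2% at 300 kb or more with all summits, and 4.1% and −6.23% with the 20000 highest-scoring. The excess upstream of starts was 16.6% and 25.1% under these alternatives, and kept its direction in all that were run.

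Without 1 shLUC library the spread between controls can no longer be required, and more genes pass by construction. The ranges were 2460 to 2808 raised and 2902 to 3209 lowered for the gene-end percentile, 2372 to 2576 and 3118 to 3376 for the gene-body percentile, 779 to 857 and 940 to 953 for body number, 287 to 341 and 216 to 240 for end number, and 1870 to 2237 and 2454 to 2821 for the locus percentile. The shares ranged over −0.75 to −0.51 points in gene bodies and 0.57 to 0.79 at gene ends. Sites absent from shHNRNPU#1 were 38391 to 41023 and sites in shHNRNPU#1 alone 32728 to 33410. The body changes were 7.83 to 9.81% at 10 to 30 kb and −11.7 to −7.74% at 300 kb or more, and the changes at starts 16.9 to 19.7% upstream and −13.6 to −8.03% downstream.

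Of 462 values for named genes under the alternatives, 367 kept their call, 80 lost it and 15 changed direction. That total leans on the settings without 1 shLUC library, where 94 kept their call each time and the control spread was not required. At a gene-end window of 2000 bp 19 kept their call, 20 lost it and 8 changed direction. At 500 bp the counts were 23, 19 and 5, and with the 20000 highest-scoring summits 44, 28 and 2. With a window of 500 bp the difference turned positive at IER2 (57.7 points), DUSP2 (16.2), CDK9 (40.0), ATF4 (33.7) and PPP1R15A (32.4). With 2000 bp it turned at TRIM71 (0.19), PODXL (−2.99), RPL3 (−0.051), CCND1 (−2.38), ATF5 (−1.73), SLC23A3 (−1.89), MDK (−0.14) and SLC25A41 (0.34). With the 20000 highest-scoring summits the body number turned at DIP2C (−1.5) and SETD2 (−0.50).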
